A study of Mus musculus with 6 samples.

Results

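NADPH oxidase subunits were followed in stimulated primary mouse osteocytes as 5 genes, *Cybb*, *Ncf1*, *Ncf4*, *Cyba* and *Nox4*, selected by symbol from the 56748 genes of the count table. All 5 were found, and all 5 were among the 17146 genes with enough counts to be tested. RNA was sequenced from 6 cultures of cells released from long bones by serial digestion, 3 from WT mice and 3 from mice labelled cKO, which carry floxed *Gsdmd* alleles and a Cre transgene driven by the *Dmp1* promoter. After 7 days in culture, all cultures were primed with 10 ng/mL LPS over 3 h and then exposed to 20 µg/mL aluminum hydroxide over another 3 h, so that the genotypes were compared under stimulation and no unstimulated cells were analysed here. The study's methods give an age of 7 weeks for the C57BL/6 mice used for osteocyte isolation, and the sources used here do not state whether each culture came from a separate animal, so the p-values measure the spread between these 6 cultures.

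NADPH oxidases are membrane enzymes that pass electrons from NADPH across a membrane to oxygen. In phagocytes the catalytic subunit gp91phox, encoded by *Cybb*, forms a heterodimer with p22phox, encoded by *Cyba*, and stays silent until cytosolic subunits, among them p47phox (*Ncf1*) and p40phox (*Ncf4*), and a Rac GTPase are recruited, after which it releases superoxide. *Nox4* encodes another catalytic subunit, found in mesenchymal and other non-phagocytic cells, which also pairs with p22phox but needs no cytosolic organizer and produces mainly hydrogen peroxide. Oxidase activity is also a known feature of osteoclasts and their precursors. Phagocyte subunits, the shared subunit and *Nox4* were therefore compared.

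Library totals lay between 39566835 and 49734046 counts. *Gsdmd* itself had 549 to 699 counts in WT but 885 to 1045 where the label says *Gsdmd*-deficient (log2 fold change 0.69). For this reason those 3 are called the cKO-labelled libraries throughout, and every direction rests on that label. The count pools all exons and does not separate the floxed ones. *Xist*, transcribed from the inactive X chromosome, had 0 to 4 counts in WT and 44817 to 51216 in the cKO-labelled libraries. The Y-linked *Ddx3y* had 4033 to 5455 counts in WT and 0 in the cKO-labelled libraries, so that genotype and sex cannot be told apart here. The study's methods state that mice were matched for age and sex in all experiments, but both genes separate these groups. The osteocyte markers *Sost* and *Mepe* were at 3 counts or fewer in every library, and *Dmp1*, whose promoter drives the Cre, had 0 to 6 counts. *Pdpn*, expressed in early osteocytes and in other cells, was high, at 233.8 ± 7.59 CPM in WT and 193.0 ± 3.57 CPM in the cKO-labelled libraries (SD, n = 3 each). CPM are counts per 1e+06 counts of the TMM-scaled library. Values after ± are SD over the 3 libraries of a group throughout. In bulk RNA, fewer cells of a type and less RNA per cell cannot be told apart.

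The 3 phagocyte subunits and the shared subunit rose in the cKO-labelled libraries, by 2.10-fold for *Cyba*, 4.49-fold for *Cybb*, 7.96-fold for *Ncf1* and 14.0-fold for *Ncf4*, while *Nox4* fell. Of the 5 members, 4 were called higher and 1 lower at an adjusted p-value below 0.05. Over all tested genes the same rule called 20.1% higher, 19.2% lower and 39.3% in either direction. The groups did not overlap in CPM for any of the 5, as was the case for 49.2% of all tested genes. With a log2 fold change of at least 1 also required, the 4 higher members were still called and *Nox4* was not, against 6.56% higher and 4.64% lower over all tested genes. The median log2 fold change of the members was 2.17, and that of all tested genes was 0.0077.

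**Figure D1:**
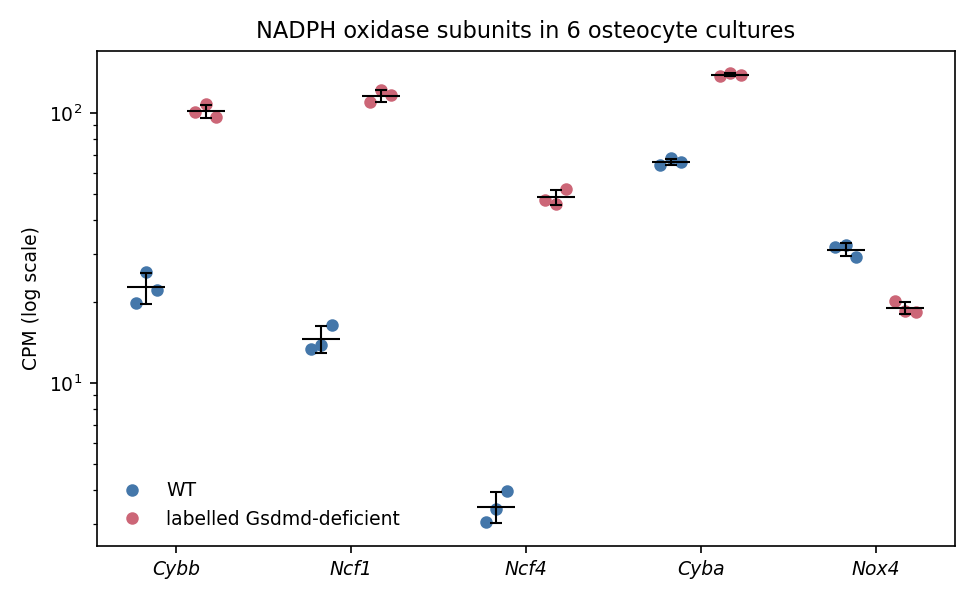
Level of each NADPH oxidase subunit in CPM (log axis) in the 3 WT libraries (blue) and the 3 cKO-labelled libraries (red), with the group mean and SD in black. The groups are apart for every gene, *Nox4* is the gene with the lower red points, and *Ncf4* has the widest gap.

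*Cybb*, the catalytic subunit of the phagocyte oxidase, occupies positions 9301491 to 9354010 of the X chromosome (mm39, minus strand). WT libraries held 891, 1281 and 859 counts, the cKO-labelled libraries 4234, 4268 and 4381. These counts correspond to 19.8, 25.8 and 22.1 CPM and to 100.6, 107.3 and 96.4 CPM. Every cKO-labelled library lay far above every WT library, and WT was the more variable group, with a coefficient of variation of 13.4% against 5.41%. Means were 22.6 ± 3.03 and 101.5 ± 5.49 CPM (SD, n = 3 each), which is 2.17 on the log2 scale (standard error 0.077, adjusted p = 1.96e-13, edgeR's quasi-likelihood test, Benjamini-Hochberg adjusted over all tested genes). Because *Cybb* is X-linked and *Xist* differed between the groups, X-linked genes were set beside it. Of 544 tested X-linked genes 23.0% were called higher, of 16573 autosomal genes 20.0%, with median log2 fold changes of -0.0024 and 0.0080. The part of sex in the *Cybb* value was not tested.

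*Ncf1* encodes the organizer p47phox, which carries the other cytosolic subunits to the membrane when phosphorylated. The gene lies on the minus strand of chromosome 5 from 134248907 to 134258479. Its counts were 603, 687 and 637 in WT and 4594, 4812 and 5283 in the cKO-labelled libraries, or 13.4, 13.8 and 16.4 CPM against 109.2, 121.0 and 116.3 CPM. The lowest of the latter was thus well above the highest WT library, WT replicate 3. The group means of 14.6 ± 1.63 and 115.5 ± 5.96 CPM (SD, n = 3 each) differed by 2.99 on the log2 scale (standard error 0.071, adjusted p = 1.09e-15, edgeR's quasi-likelihood test). The 3′ part of *Ncf1* overlaps 4303 bases of *Gtf2ird2* on the opposite strand, and the strand setting of the counting is not given in the sources used here. *Gtf2ird2* had 378 to 688 counts and a log2 fold change of 0.58 (adjusted p = 0.0014, edgeR's quasi-likelihood test). No other member overlaps a gene of the table.

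*Ncf4* encodes p40phox, which binds phosphatidylinositol 3-phosphate on phagosomes. It lies on the plus strand of chromosome 15 from 78129001 to 78146780. Counts were 138, 169 and 154 in WT and 2006, 1831 and 2371 in the cKO-labelled libraries, which gave 3.07, 3.41 and 3.97 CPM against 47.7, 46.0 and 52.2 CPM. It was the member with the fewest counts in WT and the one with the largest difference, and the groups were more than 10-fold apart at their closest libraries. From 3.48 ± 0.455 to 48.6 ± 3.19 CPM (SD, n = 3 each), the gain was 3.81 on the log2 scale (standard error 0.097, adjusted p = 2.73e-15, edgeR's quasi-likelihood test). Ordered by log2 fold change, *Ncf4* stood at position 73 from the top among the 17146 tested genes, *Ncf1* at 213, *Cybb* at 486 and *Cyba* at 1215.

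*Cyba*, which encodes the p22phox shared by both oxidases, lies on the minus strand of chromosome 8 from 123151515 to 123159669. WT had 2884, 3362 and 2544 counts and the cKO-labelled libraries 5766, 5569 and 6277. In CPM these were 64.1, 67.7 and 65.5 against 137.0, 140.0 and 138.2. Replicates were tighter than for any other member, with coefficients of variation of 2.81% and 1.10%. Means of 65.8 ± 1.85 and 138.4 ± 1.52 CPM (SD, n = 3 each) differed by 1.07 on the log2 scale (standard error 0.046, adjusted p = 2.44e-12, edgeR's quasi-likelihood test).

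*Nox4* lies on the plus strand of chromosome 7 from 86895304 to 87047918, a span of 152.6 kb and the longest of the 5. Its counts were 1431, 1607 and 1132 in WT and 845, 736 and 833 in the cKO-labelled libraries, or 31.8, 32.4 and 29.2 CPM against 20.1, 18.5 and 18.3 CPM. The lowest WT library remained above the highest cKO-labelled one. From 31.1 ± 1.71 to 19.0 ± 0.961 CPM (SD, n = 3 each), *Nox4* fell by 0.71 on the log2 scale (standard error 0.075, adjusted p = 4.6e-07, edgeR's quasi-likelihood test), so that WT had 1.64 times the level. It stood at position 1508 from the bottom of the 17146 genes.

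Promoter sequence is a property the selection did not use. RefSeq promoters on GRCm38.p6, a build other than that of the counts, were matched for 4 of the 5 members, *Cybb*, *Ncf1*, *Cyba* and *Nox4*. The last 120 bases before the annotated start are shown 5′ to 3′ to let the 2 catalytic subunits and their partners be compared, in lower case with each CG step in capitals. The regions are chrX:9469325-9469444 on the minus strand for *Cybb*, chr5:134229626-134229745 on the minus strand for *Ncf1*, chr8:122432941-122433060 on the minus strand for *Cyba* and chr7:87246529-87246648 on the plus strand for *Nox4*.
Cybb: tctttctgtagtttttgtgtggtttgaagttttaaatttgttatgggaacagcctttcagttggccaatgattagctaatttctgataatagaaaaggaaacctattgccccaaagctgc
Ncf1: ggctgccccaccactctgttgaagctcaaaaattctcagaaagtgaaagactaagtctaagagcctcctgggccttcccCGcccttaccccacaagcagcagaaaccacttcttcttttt
Cyba: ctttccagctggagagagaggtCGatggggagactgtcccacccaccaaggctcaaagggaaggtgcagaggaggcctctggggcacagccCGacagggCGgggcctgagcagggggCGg
Nox4: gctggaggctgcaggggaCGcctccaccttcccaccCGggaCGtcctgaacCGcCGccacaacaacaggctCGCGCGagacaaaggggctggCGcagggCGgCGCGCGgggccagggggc
Capitals are absent from the *Cybb* stretch and occur once in that of *Ncf1*, whereas they crowd the *Nox4* stretch, with 4 CG steps for *Cyba* and 13 for *Nox4*. Over the 250 bases before the start, G and C made up 34% of the *Cybb* promoter, 54.4% for *Ncf1*, 60% for *Cyba* and 67.2% for *Nox4*, against a median of 52.4% over 32851 RefSeq promoters. CG steps numbered 1, 2, 6 and 20 in the same order, with a median of 6 over those promoters. The motif GAGGAA, a core of PU.1 sites, was searched on both strands of these 250 bases and was found in 0 of the 4, while 23.3% of RefSeq promoters hold it. This says only that these letters are not in this window.

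To compare genes with each other, CPM were divided by gene length in kilobases, taken from the table. On this scale, in CPM per kilobase, *Cyba* was the most abundant member in all 6 libraries, at 63.3 ± 1.78 in WT and 133.2 ± 1.47 in the cKO-labelled libraries (SD, n = 3 each). In WT, *Ncf1* (3.97 ± 0.444), *Cybb* (3.89 ± 0.522) and *Nox4* (3.67 ± 0.202) did not differ beyond their spread and changed places from library to library, and *Ncf4* was lowest, at 1.72 ± 0.225. In the cKO-labelled libraries the order was the same in all 3, with *Ncf1* (31.5 ± 1.63) and *Ncf4* (24.1 ± 1.58) above *Cybb* (17.5 ± 0.946) and *Nox4* last, at 2.24 ± 0.113. The length of the table is not that of a single transcript. It is 8471 bases for *Nox4* against 3753 for the canonical transcript of GENCODE M39 on GRCm39, 5808 against 4759 for *Cybb* and 1039 against 793 for *Cyba*. With canonical lengths, a scale chosen after the data had been seen, *Nox4* (8.29 ± 0.457) was above *Cybb* (4.74 ± 0.638) and *Ncf1* (5.35 ± 0.598) in every WT library, and the order in the cKO-labelled libraries was the one given.

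The catalytic subunits were then set against each other within each library, on the CPM per kilobase scale. *Nox4* made up 52.4%, 46.2% and 47.5% of the sum of *Nox4* and *Cybb* in WT and 12.0%, 10.6% and 11.5% in the cKO-labelled libraries. On this scale the balance of catalytic transcripts thus went from near parity to mostly *Cybb*, and the groups did not overlap. The means were 48.7 ± 3.26% and 11.4 ± 0.743% (SD, n = 3 each), or 63.7 ± 2.99% and 19.2 ± 1.15% with canonical lengths. Near parity in WT therefore depends on the gene length used, and the direction of the shift does not. The sum itself rose from 7.56 ± 0.614 to 19.7 ± 0.948 CPM per kilobase. The level of *Cyba* was 8.40 ± 0.445 times this sum in WT and 6.77 ± 0.288 times in the cKO-labelled libraries, but with canonical lengths the values were 6.38 ± 0.288 and 6.63 ± 0.267, so that the direction of this difference depends on the gene length used. These measures were chosen after the values had been seen and are given as a description.

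**Figure D2:**
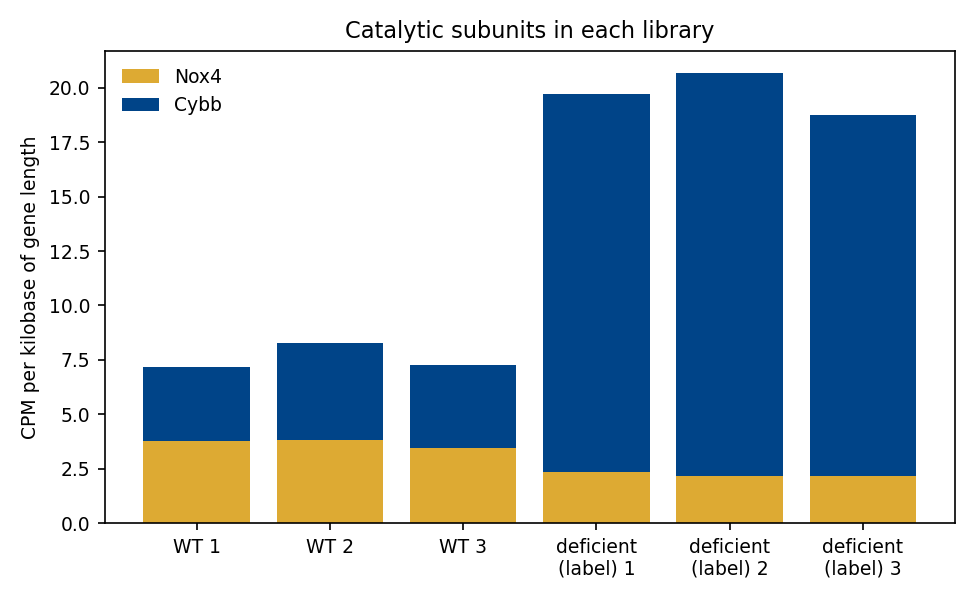
Level of the catalytic subunits *Nox4* (yellow) and *Cybb* (blue), stacked, in CPM per kilobase of gene length in each of the 6 libraries. The 3 WT bars are split nearly evenly, and in the 3 cKO-labelled libraries *Nox4* takes 10.6% to 12.0% of a taller bar.

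Unequal change of the subunits was tested on the log2 ratio of 2 members in each library, for 7 ratios. In each of them WT and the cKO-labelled libraries were fully apart, and the exact two-sided permutation test gave p = 0.1, the smallest value that 3 libraries against 3 allow, with 0.1 after Benjamini-Hochberg adjustment over the 7. Over *Nox4*, the log2 ratio went up by 2.89 for *Cybb*, by 3.70 for *Ncf1*, by 4.52 for *Ncf4* and by 1.79 for *Cyba*. Against the shared subunit, the phagocyte subunits gained 1.10 for *Cybb*, 1.92 for *Ncf1* and 2.73 for *Ncf4*. *Cybb* over *Nox4*, for example, had log2 ratios of -0.14, 0.22 and 0.15 in WT and 2.87, 3.08 and 2.94 in the cKO-labelled libraries. No ratio could pass a threshold of 0.05 in this design.

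Other proteins of the phagocyte oxidase were read from a list of 5 genes. Of these, 3 were called higher, 1 lower and 1 was not called, beside 20.1% higher and 19.2% lower over all tested genes. The median log2 fold change of the list was 1.52. *Rac2*, the GTPase of the oxidase in blood cells, rose from 7.08 ± 0.831 to 42.9 ± 1.62 CPM (log2 fold change 2.60). Its groups did not overlap, and its change lay between those of *Cybb* and *Ncf1*. *Nrros*, a protein of the endoplasmic reticulum that limits gp91phox, rose from 5.85 ± 0.42 to 47.4 ± 4.55 CPM (3.02), and the proton channel *Hvcn1*, which balances the charge moved by the oxidase, from 9.61 ± 0.437 to 27.5 ± 1.58 CPM (1.52).

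The other partners on the list, *Cybc1* and *Rac1*, are widely expressed and had values close to 0. *Cybc1*, a chaperone needed for stable gp91phox and p22phox, had 47.8, 53.3 and 54.8 CPM in WT and 52.9, 51.3 and 50.6 CPM in the cKO-labelled libraries. Its groups overlapped, and its log2 fold change of -0.0099 (standard error 0.058) was not called (adjusted p = 0.916, edgeR's quasi-likelihood test). *Rac1*, the ubiquitous GTPase, fell slightly, from 344.0 ± 10.2 to 318.8 ± 3.09 CPM, by 0.11 on the log2 scale (adjusted p = 0.0303, edgeR's quasi-likelihood test). This call was lost with library size only (adjusted p = 0.0862) and without any 1 library other than WT replicate 3 (0.0555 to 0.098).

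Most of the remaining oxidase family had few counts. Of 8 genes, *Noxo1*, an organizer for Nox1, was the 1 with enough counts to be tested, at 83 to 118 counts in WT and 114 to 126 in the cKO-labelled libraries, and it was not called (log2 fold change 0.26, adjusted p = 0.406, edgeR's quasi-likelihood test). *Nox1* had 6 to 10 counts in each library and *Duox1* 0 to 20. *Nox3* had 0 counts in WT and 2 to 6 in the cKO-labelled libraries, *Duoxa1* had 0 to 6, and *Noxa1*, *Duox2* and *Duoxa2* were at 3 counts or fewer everywhere. These 7 genes were not tested. The groups did not overlap for *Nox3* or *Duox1*, which was counted 20, 11 and 7 times in WT and 6, 0 and 2 times in the cKO-labelled libraries. The same held for 49.2% of all tested genes, and at counts this low it says little about these genes. *Cybb* and *Nox4* were thus the catalytic subunits with appreciable counts.

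Among 14 kinases, exchange factors and adapters that act on oxidase assembly, the test called 7 higher and 2 lower (median log2 fold change 0.29). Over all tested genes it called 20.1% higher and 19.2% lower. The largest difference was in *Pik3cg*, a leukocyte phosphoinositide kinase, from 4.78 ± 0.75 to 39.2 ± 1.68 CPM (log2 fold change 3.04). *Vav1* (2.85) and *Prkcb* (2.49), an exchange factor for Rac and a kinase that phosphorylates p47phox, came next. *Prkcd*, a related kinase, rose by 0.47 and *Sh3pxd2b* by 0.74. The lowest value was that of *Sh3pxd2a*, which encodes the adapter Tks5 (-0.38), followed by *Prkca* (-0.31). *Poldip2*, a protein that binds p22phox and acts on Nox4, was at 59.7 ± 3.54 and 54.3 ± 0.624 CPM and was not called (log2 fold change -0.14, adjusted p = 0.0515, edgeR's quasi-likelihood test), though 4 of 14 refits called it, with RLE scaling (adjusted p = 0.0412), at least 10 counts in every library (0.0481), counts halved (0.045) or WT replicate 2 left out (0.0105).

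**Figure D3:**
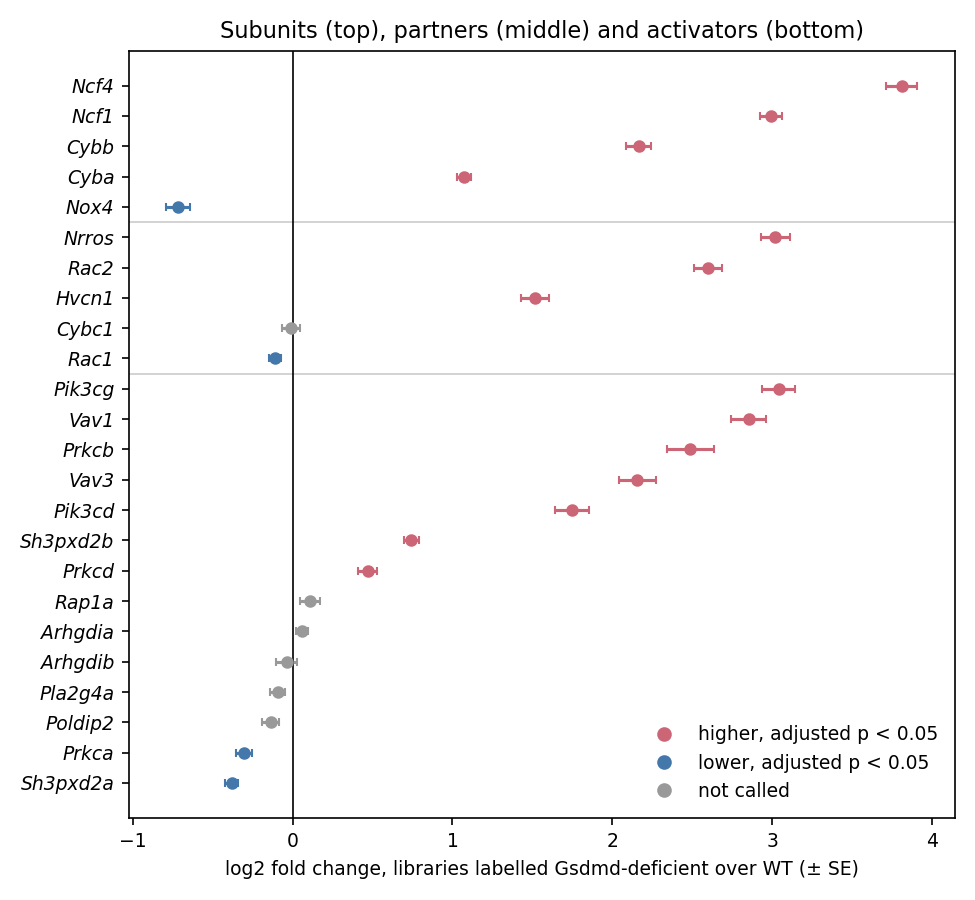
Log2 fold change, cKO-labelled libraries over WT, with its standard error for the 5 subunits (top), 5 phagocyte oxidase partners (middle) and 14 activators (bottom), coloured by call. *Ncf4* lies farthest right, at 3.81, *Nox4* farthest left, at -0.71, and *Cybc1* lies next to 0.

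Transcription factors known to act on phagocyte oxidase genes rose in 4 of 5 cases, beside 20.1% of all tested genes called higher. *Spi1*, which encodes PU.1, rose from 7.48 ± 2.11 to 59.2 ± 0.96 CPM (log2 fold change 2.99) and *Irf8* from 3.48 ± 0.147 to 23.0 ± 0.109 CPM (2.72), with smaller changes in *Cebpb* (0.58) and *Elf1* (0.15). The *Elf1* call was lost in DESeq2 (adjusted p = 0.0649) and without any 1 library other than WT replicate 3 (0.0558 to 0.182). *Irf1* fell (-0.41, adjusted p = 0.0064, edgeR's quasi-likelihood test). On the side of *Nox4*, for which TGF-β is a known inducer, 3 of 8 TGF-β pathway genes were higher and 3 were lower. Their median was 0.046, with no gene past a log2 fold change of 1. Over all tested genes 20.1% were called higher and 19.2% lower. *Tgfb1* rose from 66.2 ± 4.91 to 108.9 ± 2.96 CPM (0.72), *Smad3* changed by -0.29, and *Tgfb3* had the lowest value (-0.38), from 97.6 ± 2.81 to 75.2 ± 0.137 CPM.

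Of 15 enzymes that remove superoxide and peroxides, 4 were called higher, 5 lower and 6 were not called, beside 20.1% higher and 19.2% lower over all tested genes. Their median log2 fold change was -0.073, and none passed 1 in size. The mitochondrial superoxide dismutase *Sod2* had the highest value, from 167.1 ± 3.48 to 299.9 ± 10.0 CPM (0.84), and the secreted *Sod3* went from 1862 ± 56.0 to 2542 ± 76.9 CPM (0.45). The peroxidase *Prdx6* had the lowest, from 270.3 ± 11.6 to 172.7 ± 2.29 CPM (-0.65).

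Markers of macrophages, which carry the phagocyte oxidase, moved with the subunits. Of 16 macrophage markers 15 could be tested, and all 15 were higher, beside 20.1% of all tested genes. Their median log2 fold change was 3.02, from 1.73 for *Cd14* to 4.25 for *Fcgr1*. The summed level of the list was 1312 to 1477 CPM in WT and 7212 to 7561 CPM in the cKO-labelled libraries. Most of this sum was *Lyz2*, the lysozyme of myeloid cells, at 985.8 ± 57.1 and 4518 ± 114.1 CPM (2.20 on the log2 scale, close to *Cybb*). *Csf1r* rose from 26.1 ± 1.63 to 234.9 ± 8.39 CPM and *Ptprc*, which encodes the pan-leukocyte antigen CD45, from 13.3 ± 0.874 to 104.3 ± 6.23 CPM. Both were thus also counted in WT, and *Cd163*, the untested gene of the list, had 0 to 15 counts. The part of the macrophage markers in the change of the subunits was not tested.

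Lists for neutrophils and lymphocytes had low summed levels, and the osteoclast list did not, though some of its genes had few counts. Of 11 neutrophil markers, 3 were tested and called higher, and 6 were at 3 counts or fewer in every library, among them *S100a9*, *Ly6g* and *Mpo*. The neutrophil list summed to 4.95 to 8.10 CPM in WT and 12.9 to 14.8 CPM in the cKO-labelled libraries. The 3 tested neutrophil markers had log2 fold changes of 0.49, 1.61 and 4.30. The highest was that of *Csf3r*, a receptor also found on monocytes, which went from 0.17 ± 0.0774 to 3.32 ± 0.465 CPM. No gene of the B cell and T cell lists had enough counts to be tested, and the lists summed to at most 0.665 and 0.285 CPM. Of 7 tested osteoclast markers, 2 were called higher and 3 lower, with *Acp5* at 1.24, *Atp6v0d2* at 1.84 and *Mmp9* at -2.83 on the log2 scale. For both lists, the shares over all tested genes were 20.1% higher and 19.2% lower. The osteoclast list summed to 204.7 to 209.9 CPM in WT and 188.0 to 227.9 CPM in the cKO-labelled libraries, which overlap. Much of this sum was *Ctsk*, at 96.6 CPM in WT and 73.0 CPM in the cKO-labelled libraries, and *Itgb3*, at 60.6 and 42.2 CPM. Over the libraries *Calcr* had 0 to 2 counts, *Dcstamp* 0 to 8, *Ocstamp* 6 to 22 and *Oscar* 12 to 26.

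Markers of cells in which Nox4 is the usual oxidase moved in different directions. All 4 smooth muscle markers were called lower, from -1.02 for *Acta2* to -4.49 for *Myh11*, and their summed level was 1141 to 1331 CPM in WT against 492.4 to 552.4 CPM in the cKO-labelled libraries. Of 4 endothelial markers 3 were lower and 1 higher, at summed levels of 5.51 to 5.60 and 6.27 to 6.71 CPM. The median of the 6 stromal markers was 0.036, with 3 of them higher and 2 lower. Among 5 tested osteoblast markers 2 were higher and 3 lower, and among 4 chondrocyte markers 3 were higher and 1 lower. Log2 fold changes ran from -4.25 to 2.04 in the endothelial list and from -0.60 to 1.49 in the stromal list. They ran from -0.67 to 2.01 in the osteoblast list and from -0.84 to 7.36 in the chondrocyte list. For all tested genes the shares were 20.1% higher and 19.2% lower. The part of these cell types in the *Nox4* value was not tested.

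The level of each member was next divided by the summed macrophage markers of the same library. On the log2 scale *Cybb* was at -6.05, -5.79 and -6.06 in WT and -6.16, -6.13 and -6.29 in the cKO-labelled libraries, a difference of -0.23. *Ncf1* went the other way, from -6.60 ± 0.0985 to -6.01 ± 0.046 (SD, n = 3 each), a difference of 0.59, and *Ncf4* from -8.66 ± 0.108 to -7.26 ± 0.0873, a difference of 1.40. Because the 3 phagocyte subunits share this divisor, the gaps between them are those of their log2 fold changes and not a further result. *Cyba* changed by -1.33 and *Nox4* by -3.12. The groups did not overlap for any of the 5, with p = 0.1 in the exact two-sided permutation test and 0.1 after adjustment over the 5, again the smallest value the design allows. The divisor was itself apart between the groups, at 1312 to 1477 CPM in WT and 7212 to 7561 CPM in the cKO-labelled libraries. A gene at the same level in every library would thus also be apart, so the test says little on the members themselves. When the mean log2 CPM of the markers was used in place of their sum, these differences became -0.82 for *Cybb*, 0.0010 for *Ncf1*, 0.82 for *Ncf4*, -1.92 for *Cyba* and -3.70 for *Nox4*, so that the gain of *Ncf1* depends on how the markers are summarised.

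**Figure D4:**
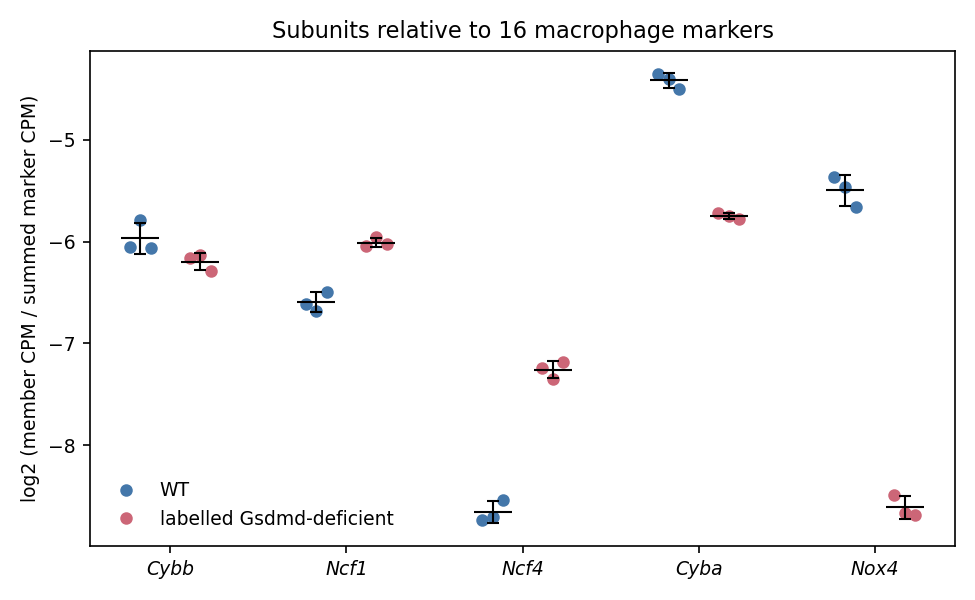
Log2 of each subunit's CPM over the summed CPM of 16 macrophage markers in the same library, for WT (blue) and cKO-labelled libraries (red), with group mean and SD in black. *Cybb* differs by -0.23, *Ncf1* and *Ncf4* are higher in red by 0.59 and 1.40, and *Cyba* and *Nox4* are lower.

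Single leukocyte genes, chosen after the values had been seen, were also used as the divisor. A shared divisor cannot change the order of the 3 subunits, so only the size of each change is read here. Over *Ptprc*, the log2 ratio changed by -0.79 for *Cybb*, 0.024 for *Ncf1* and 0.84 for *Ncf4*. For *Ncf1* the groups overlapped, at -0.041 to 0.31 in WT and 0.070 to 0.22 in the cKO-labelled libraries. Over *Csf1r* the changes were -0.99, -0.18 and 0.64.

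For each member, the protein-coding genes with the most similar pattern were sought by the root mean square difference of mean-centred log2 CPM over the 6 libraries, among 13657 genes. Nearest to *Ncf1* were *Nckap1l* (0.043), *Alox5ap* (0.047) and *C3ar1* (0.050), and nearest to *Cybb* were *Gpnmb* (0.080), *Bst1* (0.083) and *Plek* (0.083). For *Ncf4* they were *Coro1a* (0.091), *Lair1* (0.096) and *A530064D06Rik* (0.10). *Nckap1l*, *Plek* and *Coro1a* are genes of the blood cell cytoskeleton and its signaling, and *Alox5ap* and *C3ar1* belong to leukotriene synthesis and to complement. *Cyba* was closest to *Samhd1* (0.013), *Acsl1* (0.035) and *BC005537* (0.037), and *Nox4* to *Igfbp3* (0.021), *Maff* (0.031) and *Mark1* (0.036). *Igfbp3*, a secreted binding protein of insulin-like growth factors, went from 77.5 ± 3.43 to 46.4 ± 2.51 CPM. The measure is a description and is led by the difference between the groups.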

How the data were processed

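Paired-end reads of 150 bp were cleaned by the authors, mapped to the mm39 build using HISAT2 (2.0.5 in the submitters' processing notes) and assigned to genes with featureCounts, for which the notes and the paper's methods name different releases. The deposited values are raw counts per gene, together with a gene length in bases. Replicates were not pooled. Libraries were directional, and annotation release and strand setting are not given in the sources used here.

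From the counts, genes were kept by filterByExpr (17146 of 56748), scaled by TMM and compared by genotype alone with edgeR 4.0.16 (glmQLFit, glmQLFTest) in R 4.3.3, with Benjamini-Hochberg adjustment over all tested genes and a threshold of 0.05. The biological coefficient of variation was 8.36%. Replicates differed by more than sampling noise (chi-square per gene 4.80 to 13.9), and the 6 libraries were counted as separate. This does not show that they came from separate animals. Ratios between members used 0.5 added to each count. In a simulation of this comparison on 17146 genes, 68 of 100 changes of 1 and 93 of 100 changes of 2 on the log2 scale were recovered, with 7 of 16946 unchanged genes called.

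Genes named were the members, their partners and family, *Gsdmd*, *Xist*, *Ddx3y* and the 3 nearest patterns per member. From most other lists, the highest or lowest called genes and defining markers were named. The endothelial, stromal, osteoblast and chondrocyte lists are given by their ranges, without gene names. Members and lists were chosen with earlier results of these data known, and 2 listed genes are not reported here. Alternatives used DESeq2 1.42.0, limma 3.58.1 (voom), other scalings and filters, a replicate block and libraries left out. Standard errors and SD include the spread between cultures.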

Additional observations from a re-analysis of the deposited data

How the results depend on the processing

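Each of the 5 members kept its direction and its call in each of 14 refits (70 values). These were DESeq2, limma-voom, RLE scaling, library size only, no filter, at least 10 counts in every library, counts halved, the replicate block and each library left out. Log2 fold changes ranged from 2.06 to 2.27 for *Cybb*, 2.92 to 3.08 for *Ncf1*, 3.71 to 3.90 for *Ncf4*, 1.04 to 1.09 for *Cyba* and -0.76 to -0.69 for *Nox4*. Over all genes, 3445 were called higher and 3285 lower, and a log2 fold change of at least 1 left 1124 and 796. With each library left out these counts were 2942 to 3407 and 2796 to 3375.

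Same-numbered libraries did not deviate together (correlations -0.0055, 0.0023 and -0.010), so the numbers were not taken as pairs. With the replicate block, 3298 genes were higher and 3098 lower, and the members' log2 fold changes were 2.17, 2.99, 3.81, 1.07 and -0.71 in the order *Cybb*, *Ncf1*, *Ncf4*, *Cyba* and *Nox4*.

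With canonical transcript lengths, an alternative chosen after seeing the data, the share of *Nox4* in the catalytic sum was 63.7% in WT and 19.2% in the cKO-labelled libraries, and *Cyba* over that sum was 6.38 in WT. The cause is the shorter length. With each library left out, ratios between members and to the macrophage markers kept their direction. Where 1 library was left out, the lower n of that group was fitted with the spread shared by both. The same refits, also added after seeing the data, were run for 39 other named genes, of which 35 kept direction and call in every refit that tested them. *Rac1*, *Elf1* and *Poldip2* changed their call, and *Cybc1*, never called, changed sign with library size only (0.012) and with single libraries left out (-0.082 to 0.025). The cause was not tested. Depth limits *Nox1*, *Nox3* and the Duox genes, which had at most 20 counts in a library.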
